A study of Mus musculus with 19 samples.

Results

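The acute phase proteins of the liver and the cytokine signaling genes around them were followed through lactation and weaning. The group held 39 genes of the 51826 gene entries in the expression table, chosen by name as acute phase proteins other than serum amyloid A and as genes of the interleukin-6 (IL-6) and interleukin-1 (IL-1) response. By role they were 21 plasma proteins, 4 genes of metal binding and transport, 7 cytokines and receptors, and 7 genes of signaling and transcription. Poly(A) RNA was sequenced from flash-frozen liver of 19 female Balb/c mice, labelled as 12 weeks old. They were 7 nulliparous mice, 6 mice at day 10 of lactation and 6 mice at day 6 of involution, that is 6 days after the pups were weaned, and each mouse was its own library, named here by stage (NUL, LAC or ID6) and animal number, as in NUL_221. Expression was given as TPM (transcript abundance scaled to a fixed total per mouse), a gene's share of the mouse's transcripts with gene length taken into account. In whole liver, fewer cells of a type and less RNA per cell cannot be told apart.

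Hepatocytes answer infection, injury and other stress by changing the plasma proteins they secrete, which is called the acute phase response. IL-6 binds its receptor Il6ra together with the shared subunit gp130 (Il6st), and JAK kinases then phosphorylate STAT3, which enters the nucleus and induces acute phase genes as well as its own inhibitor Socs3. IL-1 acts through NF-kB and the C/EBP factors, and the liver macrophages, the Kupffer cells, are a known source of these cytokines. In mice, serum amyloid A, haptoglobin and the orosomucoids respond strongly, whereas Crp and A2m respond little.

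The mice carried animal numbers from 1 to 240. There were 3 nulliparous and 3 lactating mice with numbers under 200. The remaining 4 nulliparous and 3 lactating mice, together with the 6 involution mice, carried numbers of 200 or more. No label calls these ranges a batch, but members such as Junb differed between them, so results are also given among mice numbered 200 and above. As the lower range held no involution mouse, range and stage cannot be told apart in comparisons that set involution against it. Hepatocyte markers (8 genes) were abundant in all mice, with sums of 60247 to 147466 TPM. A library's share of TPM left for other genes also moved: albumin alone held 5.52% ± 0.94 (SD, n = 7) of TPM in nulliparous mice, 10.0% ± 1.65 (n = 6) in lactating mice and 6.25% ± 1.03 (n = 6) at involution. When the mice were rescaled by median ratios over genes, the median log2 change of all genes from lactation to involution moved from 0.10 to -0.0056. Of all genes called in that comparison 79.3% rose without and 49.0% with this scaling, against 29.5% and 50.3% from nulliparous to lactation and 79.1% and 43.5% from nulliparous to involution. TPM retains no read depth, so no counting interval can be given.

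Of the 39 members, 38 had a mean of at least 0.1 TPM and entered the limma-trend test, made on log2(TPM + 1) in 1 fit of all 19 mice, with adjustment over all 16230 genes. "Rose" and "fell" below mean an adjusted p under 0.05. A2m, the protease inhibitor alpha-2-macroglobulin, was the member under the filter, at 0 to 0.09 TPM in all mice. The lowest of the 3 stage means lay at lactation day 10 for 27 of the 38 members, including 16 of 20 plasma proteins, and the highest at involution day 6 for 20, including 13 plasma proteins. Over all genes tested these shares were 48.8% and 53.7%. With median-ratio scaling, a tally added after the data were seen, 23 members were lowest at lactation and 19 highest at involution, against 34.9% and 33.8% of all genes.

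**Figure D1:**
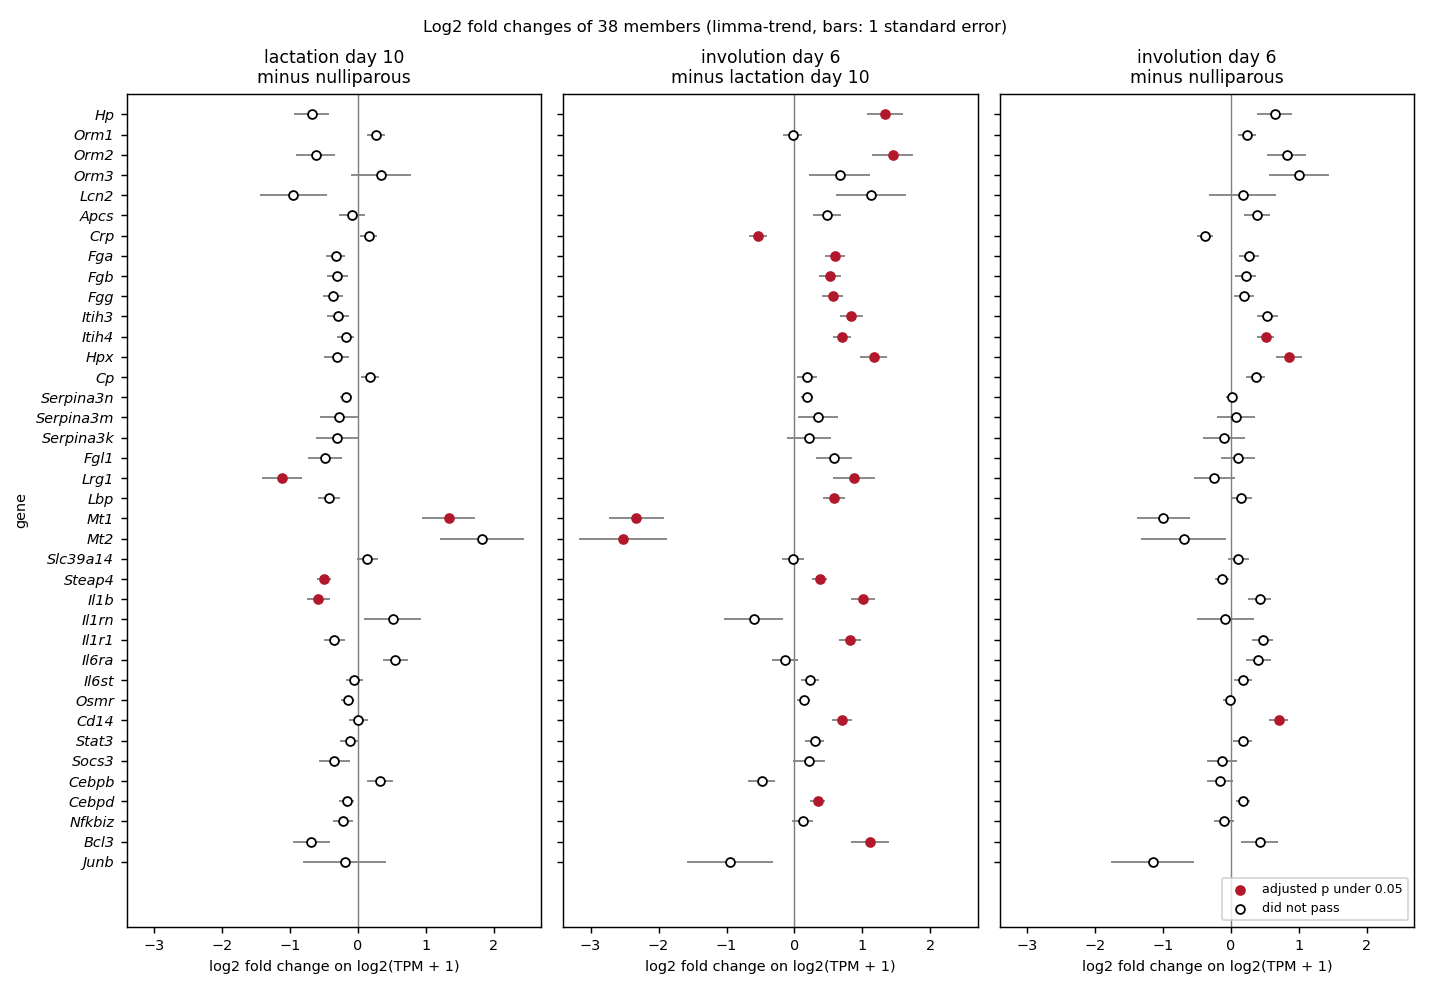
Log2 fold changes of the 38 tested members in the 3 comparisons (x axis, on the log2(TPM + 1) scale; bars are 1 standard error; filled points have a limma adjusted p under 0.05). From lactation day 10 to involution day 6, 16 members lie filled to the right of 0 and 3 (Crp, Mt1 and Mt2) to the left.

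The comparison of involution day 6 with lactation day 10 asks which liver transcripts change after the pups are weaned. Of the 38 members 16 rose (42.1%) and 3 fell (7.89%), where 18.1% of all tested genes rose and 4.73% fell. Where a log2 fold change of 1 or more in either direction was required as well, 7 members passed both thresholds, Hp, Orm2, Hpx, Il1b and Bcl3 upward and Mt1 and Mt2 downward, where 1.93% of all genes passed both. The median log2 fold change of the members was 0.36, against 0.10 over all genes. With median-ratio scaling 10 members rose and 4 fell, where 8.02% and 8.34% of all genes did. Among mice numbered 200 and above, 16 members rose and 1 (Mt1) fell, where 10.5% of all genes rose and 3.58% fell. Of the 19 calls over all mice 13 were shared, Crp, Fgb, Fgg, Lrg1, Mt2 and Cebpd no longer passed, and Orm3, Lcn2, Il1rn and Stat3 were gained. With the range of animal number as a covariate 12 members rose and 3 fell, where 2100 and 630 of all 16230 genes did. Of these member calls 14 were shared, Fgb, Fgg, Lrg1, Lbp and Cebpd were lost and Orm3 was gained. With only the 2 groups fitted 20 members rose and 3 fell, where 2983 and 764 of all 16127 genes did. All 19 calls were kept in that fit, and Apcs, Serpina3n, Fgl1 and Stat3 were gained.

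The plasma proteins made up most of the rise: 10 of 20 rose (Hp, Orm2, Fga, Fgb, Fgg, Itih3, Itih4, Hpx, Lrg1 and Lbp), 1 fell (Crp) and 9 did not pass. Their median log2 fold change was 0.58. Together they held 1.96% ± 0.44 (SD, n = 6) of all TPM at lactation day 10, 2.93% ± 0.49 (n = 6) at involution day 6 and 2.44% ± 0.73 (n = 7) in nulliparous mice. The share also differed by range of animal number. Lactating mice held 1.47% to 1.65% in the lower range and 2.18% to 2.44% in the upper range. Nulliparous mice held 1.63% to 2.04% and 2.10% to 3.54% in the same order. Involution mice, all in the upper range, held 2.38% to 3.76%, which overlapped the upper-range values of both other stages. These differences in share were not tested.

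Haptoglobin (Hp, chr8:109575128-109579172 on GRCm38), which binds free hemoglobin in plasma, and hemopexin (Hpx, chr7:105591613-105600137), which binds free heme, rose the most among the abundant plasma proteins. Hp was at 1013 to 1736 TPM at lactation day 10 (median 1391) and at 1911 to 5528 at involution day 6 (median 3500). The 2 groups did not overlap, and every involution mouse was above every lactating mouse. The ratio of means was 2.59 and the log2 fold change 1.33 (SE 0.27, limma adjusted p = 0.00144). In the upper range of animal numbers the log2 fold change was 1.04 (adjusted p = 0.0208). Hpx was at 1972 to 3046 TPM at lactation (median 2445) and at 4105 to 8182 at involution (median 5231), again without overlap. Its ratio of means was 2.27 and its log2 fold change 1.17 (SE 0.20, limma adjusted p = 0.000315), and 0.91 among mice numbered 200 and above (adjusted p = 0.00500). The hemoglobin transcripts and other red blood cell markers, measured in the same libraries, went the other way: 5 of 5 tested markers fell, with a sum of 1331 to 3337 TPM at lactation and 197 to 847 at involution, and Slc4a1 was listed at 0 in all involution mice. Their part in the result was not tested.

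**Figure D2:**
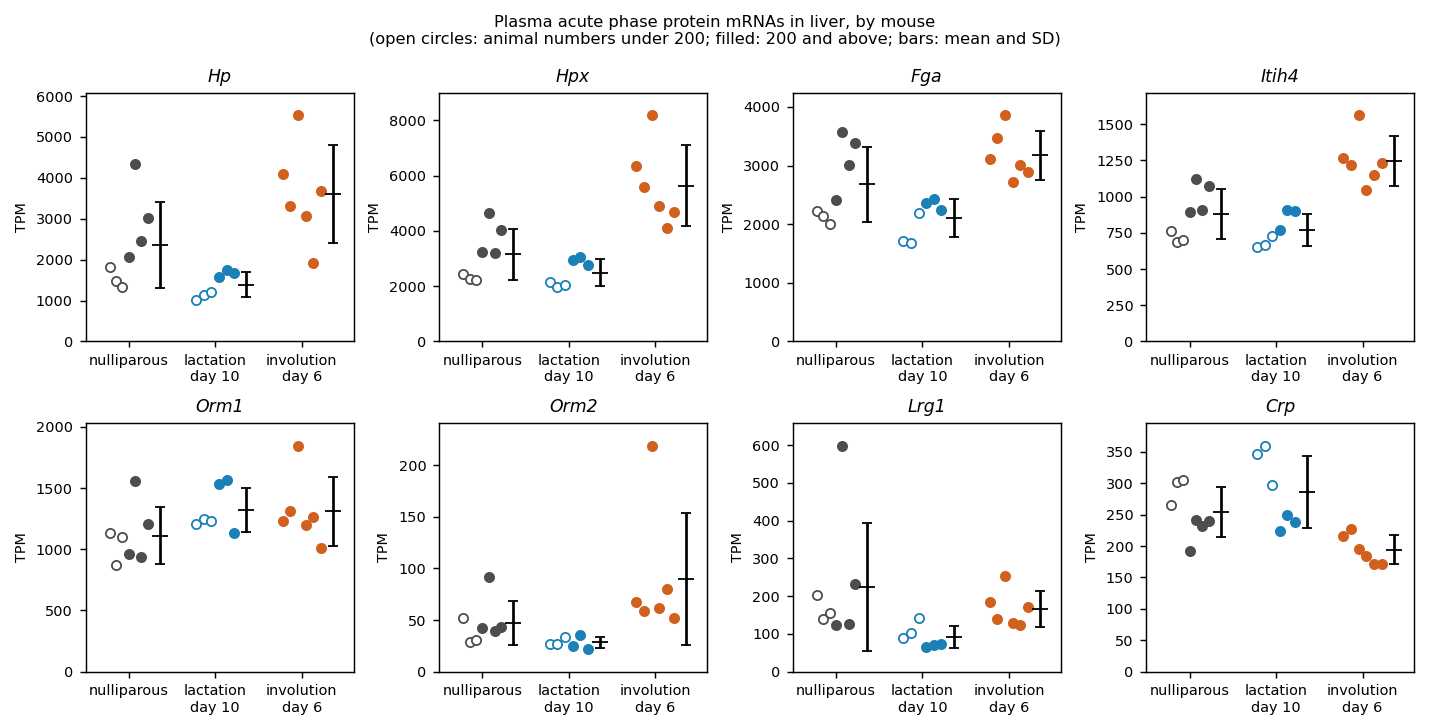
TPM of 8 plasma protein genes in each of the 19 mice, by stage (y axes start at 0; open circles are animal numbers under 200, filled circles 200 and above, bars are mean and SD). Hp, Hpx, Fga, Itih4 and Orm2 at involution day 6 lie above every lactating mouse, Orm1 does not, and Crp runs lower at involution.

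The 3 fibrinogen chains, whose products assemble into the clotting protein fibrinogen, moved together. The promoters of Fgb and Fgg are shown because the 3 chains sit in 1 cluster on chromosome 3 and changed by like amounts. That of Fga is given by its matches alone. The sequences are the 250 bases before the RefSeq gene start (GRCm38.p6), 5′ to 3′ on the gene's strand, with capitals for matches, on either strand, to TTCNNNGAA (a STAT motif), CTGGGAA (a type 2 IL-6 response element) or TTGCNNAA (a C/EBP motif). No 2 of the printed matches overlapped.
Fgb: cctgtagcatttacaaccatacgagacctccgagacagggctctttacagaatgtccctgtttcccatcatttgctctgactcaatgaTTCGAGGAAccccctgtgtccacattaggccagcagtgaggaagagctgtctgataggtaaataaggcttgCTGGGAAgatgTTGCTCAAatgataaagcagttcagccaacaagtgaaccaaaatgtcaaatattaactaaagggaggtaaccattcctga
Fgg: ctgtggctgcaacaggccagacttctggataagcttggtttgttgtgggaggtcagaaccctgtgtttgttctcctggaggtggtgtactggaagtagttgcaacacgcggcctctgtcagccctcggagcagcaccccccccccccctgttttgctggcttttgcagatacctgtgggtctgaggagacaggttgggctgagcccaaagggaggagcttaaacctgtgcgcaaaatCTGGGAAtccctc
The Fgb window is chr3:83049864-83050113 on the minus strand and held 1 match of each kind, starting 162, 91 and 80 bases before the gene start. The Fgg window is chr3:83007474-83007723 on the plus strand and held 1 match, to CTGGGAA, starting 13 bases before the start. The Fga window held 1 match to TTCNNNGAA and 1 to TTGCNNAA. Of all 32851 promoter windows of this length in the table, 7.02% held TTCNNNGAA, 9.10% held CTGGGAA and 9.56% held TTGCNNAA. A match is a description of letters, not a measured binding site.

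Fga (chr3:83026076-83033627) was at 1676 to 2429 TPM at lactation day 10 (median 2219) and at 2718 to 3857 at involution day 6 (median 3061), with no overlap and a log2 fold change of 0.60 (SE 0.15, limma adjusted p = 0.00670). Fgg (chr3:83007724-83015049) was at 1763 to 2593 TPM (median 2319) and at 2780 to 4156 (median 3168), with no overlap and a log2 fold change of 0.56 (SE 0.15, limma adjusted p = 0.0133). All 6 involution mice were thus above all 6 lactating mice for both chains. Fgb (chr3:83040141-83049863) averaged 1110 ± 164 TPM (SD, n = 6) at lactation and 1600 ± 283 (n = 6) at involution, its groups overlapped, and its log2 fold change was 0.52 (limma adjusted p = 0.0226). The Fgb call was lost when LAC_102, LAC_36, ID6_209 or ID6_216 was left out (adjusted p up to 0.0545 over the 19 mice left out in turn). It was kept with only the 2 groups fitted (limma adjusted p = 0.00936). With median-ratio scaling Fgb and Fgg no longer passed (adjusted p = 0.136 and 0.0920), and Fga stayed just inside (0.0478). Among mice numbered 200 and above Fga rose (log2 fold change 0.43, limma adjusted p = 0.0439), whereas Fgb (0.34, adjusted p = 0.190) and Fgg (0.36, adjusted p = 0.116) did not pass. Summed over the 3 chains, TPM rose from 5439 ± 855 (SD, n = 6) to 8046 ± 1163 (n = 6), a ratio of 1.48 (two-sided exact permutation test, p = 0.00216, the smallest that 6 against 6 mice can give, adjusted p = 0.0260 over 12 tests of sums). In the upper range the ratio was 1.31 (exact permutation p = 0.0238, adjusted p = 0.190).

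The shares of the chains lay close together at the 3 stages. Fga made up 38.4% ± 1.1 (SD, n = 7) of the summed TPM of the chains in nulliparous mice, 38.7% ± 0.80 (n = 6) at lactation and 39.5% ± 1.5 (n = 6) at involution. Fgb made up 19.9% ± 0.69, 20.5% ± 0.95 and 19.8% ± 0.78 in the same order. Across the 19 mice, after the mean of each stage and range of animal number was removed, log2 values of Fga and Fgb varied together (Pearson r = 0.90, permutation p = 2e-05, adjusted p = 0.0001 over 5 relations; Spearman rho = 0.89, permutation p = 3e-05, adjusted p = 0.00015). Leaving out the pair of mice most distant from the Fga median gave r = 0.86. Among the 13 mice numbered 200 and above r was 0.95 (permutation p = 0.00013), and among the 6 lower-numbered mice 0.80 (permutation p = 0.111).

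The inter-alpha-trypsin inhibitor heavy chains Itih3 (chr14:30908572-30923760) and Itih4 (chr14:30886476-30902353), neighbors on chromosome 14 whose products bind hyaluronan or are cleaved in plasma during inflammation, also rose. The Itih4 promoter window (chr14:30886226-30886475, plus strand) and that of Hpx (chr7:105600117-105600366, minus strand) are shown as those of the 2 plasma proteins that also rose at involution against nulliparous mice over all mice, with capitals as above.
Itih4: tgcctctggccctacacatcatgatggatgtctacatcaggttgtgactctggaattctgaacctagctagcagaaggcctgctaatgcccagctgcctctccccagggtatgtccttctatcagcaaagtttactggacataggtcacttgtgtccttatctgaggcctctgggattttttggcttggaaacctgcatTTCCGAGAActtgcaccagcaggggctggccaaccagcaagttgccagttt
Hpx: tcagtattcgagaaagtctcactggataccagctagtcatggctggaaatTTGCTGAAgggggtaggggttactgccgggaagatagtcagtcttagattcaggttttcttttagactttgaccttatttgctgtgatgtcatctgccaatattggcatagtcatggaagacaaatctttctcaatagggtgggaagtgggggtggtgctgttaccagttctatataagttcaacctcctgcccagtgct
Itih4 held 1 match to TTCNNNGAA, starting 51 bases before the gene start, and Hpx held 1 match to TTGCNNAA, starting 200 bases before it.

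Itih3 was at 273 to 350 TPM at lactation day 10 (median 330) and at 508 to 734 at involution day 6 (median 558), and its log2 fold change was 0.84 (SE 0.17, limma adjusted p = 0.00131). Itih4 was at 652 to 906 TPM (median 749) and at 1046 to 1562 (median 1224), and its log2 fold change was 0.69 (SE 0.13, limma adjusted p = 0.000776). For both genes each involution mouse was above each lactating mouse. Both also rose among mice numbered 200 and above, by log2 fold changes of 0.74 and 0.53 (adjusted p = 0.00157 and 0.00780), and with median-ratio scaling (0.67 and 0.53).

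The orosomucoids are small acidic plasma proteins encoded by related neighboring genes, so the division of reads among them can be uncertain. Orm2 (chr4:63362449-63365878) was at 22.01 to 35.9 TPM at lactation day 10 (median 27.1) and at 51.8 to 219 at involution day 6 (median 64.6). The groups did not overlap, but ID6_216 at 219 TPM stood far above the other 5, whose highest was 79.8. The log2 fold change was 1.44 (SE 0.30, limma adjusted p = 0.00171), and without NUL_221 and ID6_216 it was 1.15 (adjusted p = 0.000106). Orm1 (chr4:63344560-63348163), the far more abundant copy, was at 1136 to 1569 TPM at lactation and 1011 to 1847 at involution (log2 fold change -0.03, adjusted p = 0.920), and Orm3 averaged 8.91 ± 7.6 (SD, n = 6) and 11.1 ± 4.4 (n = 6) TPM (adjusted p = 0.311). The sum of the 3 genes was 1358 ± 182 TPM at lactation and 1411 ± 348 at involution (two-sided exact permutation p = 0.801, n = 6 and 6), a difference of 52.9 TPM. The share of Orm2 in this sum was 2.10% ± 0.34 at lactation, 5.92% ± 2.3 at involution and 3.92% ± 0.92 (n = 7) in nulliparous mice.

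Lrg1, a leucine-rich glycoprotein induced in inflammation, and Lbp, which presents bacterial lipopolysaccharide to CD14, rose as well. Lrg1 (chr17:56119678-56122001) was at 66.1 to 143 TPM at lactation (median 81.0) and at 124 to 253 at involution (median 156), with a log2 fold change of 0.88 (SE 0.31, limma adjusted p = 0.0482). Its groups overlapped and the call was at the threshold: it was lost when any 1 of 13 of the 19 mice was left out (adjusted p of 0.00592 to 0.105), namely NUL_1, NUL_13, NUL_227, each lactating mouse but LAC_133, or each involution mouse but ID6_230. Nor did it pass in the upper range (log2 fold change 1.19, adjusted p = 0.0590). With only the 2 groups fitted, which leaves out the nulliparous mice, Lrg1 passed (SE 0.20, limma adjusted p = 0.00808). Lbp (chr2:158306493-158332852) was at 50.4 to 59.0 TPM at lactation (median 56.1) and at 71.1 to 99.3 at involution (median 82.4), without overlap. Its log2 fold change was 0.58 (SE 0.16, limma adjusted p = 0.0146), and it remained past the threshold for each mouse left out and among mice numbered 200 and above (adjusted p = 0.0132), but not with median-ratio scaling (0.0653) or with the range of animal number as a covariate (0.0846).

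Crp, the pentraxin that is a major acute phase protein in humans and a minor one in mice, fell. Crp (chr1:172698055-172833031) was at 224 to 360 TPM at lactation day 10 (median 273) and at 171 to 226.5 at involution day 6 (median 190), with a log2 fold change of -0.54 (SE 0.13, limma adjusted p = 0.00520). The 3 lower-numbered lactating mice held the 3 highest values, 297 to 360 TPM, and the groups overlapped only in LAC_200 at 224 TPM and ID6_209 at 226.5. Among animal numbers of 200 and above its log2 fold change was -0.29 (adjusted p = 0.0689). The related pentraxin Apcs averaged 669 ± 152 TPM (SD, n = 6) at lactation and 920 ± 132 (n = 6) at involution and did not pass (log2 fold change 0.48, adjusted p = 0.0930).

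The other plasma proteins did not pass in the fit of all mice: Lcn2 (log2 fold change 1.12, adjusted p = 0.121), Fgl1 (0.58, 0.115), Cp (0.19, 0.380) and the serine protease inhibitors Serpina3n (0.19, 0.124), Serpina3m (0.35, 0.416) and Serpina3k (0.21, 0.682). Serpina3n was at 346 to 365 TPM at lactation and at 384 to 428 at involution, without overlap. With only the 2 groups fitted, Serpina3n (limma adjusted p = 0.0133), Fgl1 (0.00765) and Apcs (0.0304) rose. Leaving out 1 mouse brought Fgl1 (without NUL_221, adjusted p = 0.0183) and Apcs (without NUL_4, 0.0492) past the threshold. Lcn2, an iron-siderophore binding protein, was at 14.0 to 17.8 TPM in the 3 lower-numbered lactating mice, but at 3.09 to 3.67 in the 3 lactating mice numbered 200 and above. Within the upper range it therefore rose (log2 fold change 2.12, limma adjusted p = 0.0153), and Orm3 did too (1.84, adjusted p = 0.00122). The Serpina3 genes are related, and Serpina3m overlaps Serpina3k in the annotation (both start at chr12:104338486), so the sum of the 3 was compared as well: it was 5690 ± 2537 TPM at lactation and 6071 ± 989 at involution (two-sided exact permutation p = 0.734, n = 6 and 6). In the upper range this sum went the other way, 7923 ± 829.5 (n = 3) against 6071 ± 989 (n = 6; exact permutation p = 0.0476, adjusted p = 0.190).

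The metallothioneins Mt1 and Mt2, small cysteine-rich proteins that bind zinc and copper and are induced by metals, glucocorticoids and IL-6, had the largest falls of the members in log2 fold change. Their promoters are shown because both genes moved together and against the plasma proteins. Here capitals mark TGCNCNC, the core letters of a metal response element, on either strand.
Mt1: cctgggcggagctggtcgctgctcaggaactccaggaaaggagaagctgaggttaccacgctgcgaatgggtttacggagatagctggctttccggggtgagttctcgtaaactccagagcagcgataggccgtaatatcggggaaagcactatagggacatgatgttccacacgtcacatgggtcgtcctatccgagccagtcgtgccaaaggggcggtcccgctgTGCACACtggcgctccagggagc
Mt2: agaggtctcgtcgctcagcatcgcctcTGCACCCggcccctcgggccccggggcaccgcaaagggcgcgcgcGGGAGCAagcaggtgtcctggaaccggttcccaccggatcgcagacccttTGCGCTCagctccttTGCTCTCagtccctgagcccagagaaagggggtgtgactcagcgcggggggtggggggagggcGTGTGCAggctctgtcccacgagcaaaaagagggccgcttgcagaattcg
The Mt1 window (chr8:94178839-94179088, plus strand) held 1 match and the Mt2 window (chr8:94172368-94172617, plus strand) held 5. At least 1 match stood in 44.4% of all promoter windows and at least 5 in 0.344%. Mt2 also held 1 match to TTGCNNAA, starting 12 bases before the gene start, which does not overlap the others. No match to TTCNNNGAA or CTGGGAA was in either window. RefSeq starts can differ by some bases from those of the annotation behind the TPM values, and matches describe letters only. Bases outside the windows were not searched, so the counts are not those of a whole promoter.

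Mt1 (chr8:94179082-94180327) was at 744 to 4021 TPM at lactation day 10 (median 2211) and at 242 to 705 at involution day 6 (median 344). No involution mouse reached the lowest lactating mouse, and the ratio of means was 0.187 (log2 fold change -2.33, SE 0.40, limma adjusted p = 0.000420). Mt2 (chr8:94172664-94173568) was at 138 to 1627 TPM (median 966) and at 68.0 to 191 (median 127), a ratio of 0.135 (log2 fold change -2.52, SE 0.65, limma adjusted p = 0.00856). Only LAC_200, at 138 TPM, overlapped the involution mice. The summed TPM of both genes was 3121 ± 1815 (SD, n = 6) at lactation and 536 ± 239 (n = 6) at involution (two-sided exact permutation p = 0.00433, adjusted p = 0.0260).

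Among lactating mice the values of both genes were higher in the lower range of animal number, a difference that was not tested by itself. The 3 lower-numbered lactating mice held 2401 to 4021 TPM of Mt1 and 1006 to 1627 of Mt2, and the 3 numbered 200 and above held 744 to 2020 and 138 to 926. Within the upper range Mt1 still fell from lactation to involution (log2 fold change -1.63, limma adjusted p = 0.0277), whereas Mt2 did not pass (-1.51, adjusted p = 0.235) and neither did the sum (ratio 0.310, exact permutation p = 0.0476, adjusted p = 0.190). Across all 19 mice, with stage and range removed, Mt1 and Mt2 varied together (Pearson r = 0.86, permutation p = 0.00021, adjusted p = 0.000525; Spearman rho = 0.88, permutation p = 0.00013, adjusted p = 0.000325; r = 0.86 when the pair most distant from the Mt1 median was left out). Among mice numbered 200 and above r was 0.89 (n = 13, permutation p = 0.00037) and among the 6 lower-numbered mice 0.50 (permutation p = 0.391).

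**Figure D3:**
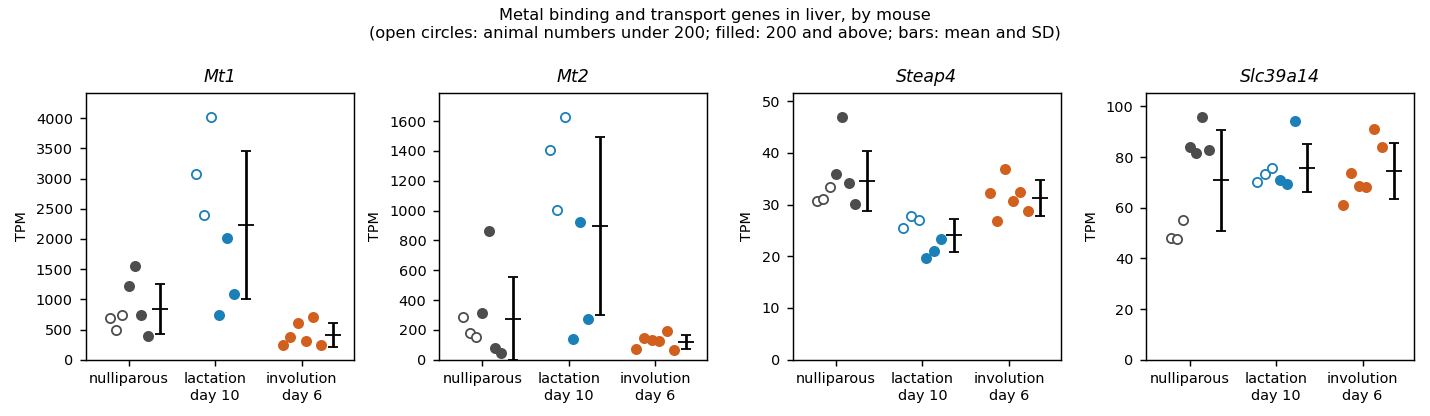
TPM of the 4 metal binding and transport genes in each mouse, by stage (y axes start at 0; open circles are animal numbers under 200, filled circles 200 and above, bars are mean and SD). Mt1 and Mt2 are highest in the 3 lower-numbered lactating mice, Steap4 in lactating mice lies below every nulliparous mouse, and Slc39a14 overlaps at all stages.

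Of the other genes of metal transport, Steap4, a metalloreductase of iron and copper, rose from 24.1 ± 3.2 TPM (SD, n = 6) to 31.3 ± 3.5 (n = 6), a log2 fold change of 0.37 (limma adjusted p = 0.0178) that did not pass with median-ratio scaling (adjusted p = 0.234). Slc39a14, the zinc and iron importer ZIP14 known as an IL-6 target, was at 75.7 ± 9.5 and 74.4 ± 11 TPM (log2 fold change -0.03, adjusted p = 0.924). Among 7 tested genes of zinc handling that are not members, Slc39a8 and Slc39a1 rose (log2 fold changes 0.40 and 0.24), Slc39a5 fell (-0.92, adjusted p = 0.000226) and the zinc sensor Mtf1 did not pass (0.35, adjusted p = 0.0608). Of 12 glucocorticoid-regulated genes, which share an inducer with the metallothioneins, 3 rose (Sgk1, Hsd11b1 and Nr3c1) and 0 fell in limma-trend, and Tsc22d3, Fkbp5 and Per1 did not pass (adjusted p = 0.486, 0.743 and 0.948).

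Of the 7 cytokines and receptors, Il1b, Il1r1 and Cd14 rose and the other 4 did not pass. Il1b (chr2:129364570-129371139), which encodes the cytokine IL-1 beta, was at 0.95 to 2.05 TPM at lactation day 10 (median 1.44) and at 2.37 to 5.77 at involution day 6 (median 4.11), without overlap. Its log2 fold change was 1.01 (SE 0.18, limma adjusted p = 0.000446), on a scale that understates changes at such low levels, since the ratio of means was 2.74. Il1r1 (chr1:40225080-40317257), the signaling receptor of IL-1, was at 3.51 to 7.59 TPM (median 4.45) and at 7.20 to 11.6 (median 9.04), and only LAC_213 overlapped the involution mice (log2 fold change 0.81, SE 0.16, limma adjusted p = 0.00128). Cd14, the co-receptor for lipopolysaccharide, was at 2.89 to 3.71 TPM (median 3.46) and at 5.08 to 7.22 (median 6.53), without overlap (log2 fold change 0.70, SE 0.14, limma adjusted p = 0.00172). All 3 genes also rose among mice numbered 200 and above, with log2 fold changes of 0.91, 0.57 and 0.64 (adjusted p = 0.00714, 0.0375 and 0.00117), and with median-ratio scaling.

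Markers of macrophages moved with these genes. All 11 Kupffer cell markers rose, and their summed TPM was 199 to 377 at lactation and 611 to 816 at involution, with Clec4f at a mean of 80.3 and 184 TPM. Of 10 tested neutrophil and monocyte markers 6 rose and 0 fell, with sums of 5.05 to 11.7 and 17.2 to 25.6 TPM. Of 8 tested lymphocyte markers 7 rose, with sums of 1.61 to 3.68 and 5.55 to 9.82 TPM, and of 12 endothelial, stellate and cholangiocyte markers 3 rose, with sums of 42.9 to 56.0 and 58.8 to 79.0 TPM. The part of these cells in the rise of Il1b, Il1r1 and Cd14 was not tested.

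**Figure D4:**
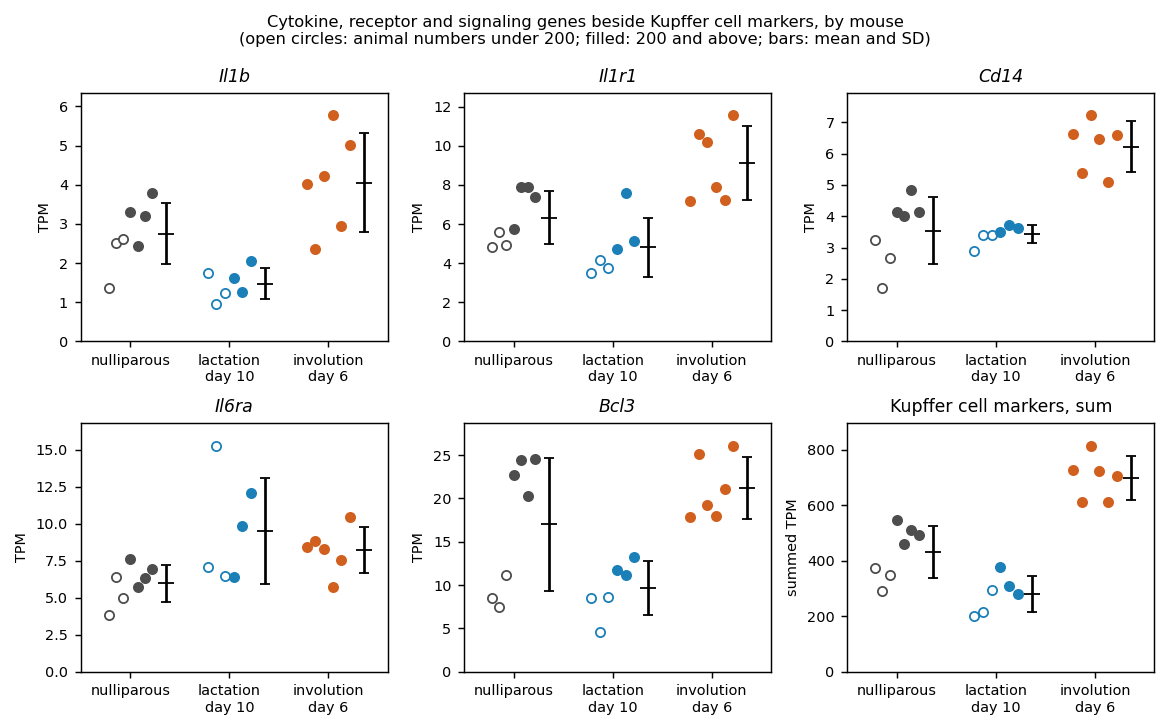
TPM of Il1b, Il1r1, Cd14, Il6ra and Bcl3 and the summed TPM of 11 Kupffer cell markers in each mouse, by stage (y axes start at 0; open circles are animal numbers under 200, filled circles 200 and above, bars are mean and SD). Il1b, Cd14, Bcl3 and the marker sum at involution day 6 lie above every lactating mouse.

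The members that are receptors of the IL-6 family did not pass. Il6ra averaged 9.52 ± 3.6 TPM (SD, n = 6) at lactation and 8.21 ± 1.6 (n = 6) at involution (log2 fold change -0.14, adjusted p = 0.623), Il6st 22.1 ± 4.4 and 25.8 ± 3.5 (0.23, adjusted p = 0.232), and Osmr, the oncostatin M receptor, 0.52 ± 0.25 and 0.65 ± 0.084 (0.14, adjusted p = 0.337). The IL-1 receptor antagonist Il1rn was split by range. It stood at 4.14 to 9.03 TPM in the 3 lower-numbered lactating mice and at 0.41 to 0.95 in the other 3, against 1.02 to 1.70 at involution. Its log2 fold change over all mice was -0.60 (adjusted p = 0.344), and among mice numbered 200 and above it rose (0.49, limma adjusted p = 0.0326).

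The ligands themselves were scarce. Il6, Il11, Osm and Lif were under the filter, with stage means of at most 0.0671 TPM, and Il6 was listed at 0 in all nulliparous mice. Of 19 tested genes of the IL-6 family and JAK-STAT pathway that are not members, 10 rose and 0 fell, among them the growth hormone receptor Ghr and the cytokine cardiotrophin Ctf1 (log2 fold changes 0.63 and 0.62, adjusted p = 2.71e-05 and 0.00356). Their median log2 fold change was 0.30. Of 27 tested genes of the IL-1, TNF and NF-kB pathways, 16 rose and 0 fell, with the inflammatory protease Casp1 (1.02, adjusted p = 8.06e-06) and Il18 (0.80, adjusted p = 1.30e-05) the largest and a median of 0.35. These shares stand against the 18.1% of all genes that rose.

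Of the 7 genes of signaling and transcription, Bcl3 and Cebpd rose. Bcl3 (chr7:19808462-19822770), an IkB-like coactivator of NF-kB and a STAT3 target, was at 4.56 to 13.2 TPM at lactation (median 9.92) and at 17.9 to 26.1 at involution (median 20.2), without overlap, and its log2 fold change was 1.11 (SE 0.28, limma adjusted p = 0.00787). In the upper range it was 0.76 (adjusted p = 0.00105). Cebpd, a C/EBP factor induced by IL-6, rose from 1.37 ± 0.15 (SD, n = 6) to 2.02 ± 0.41 (n = 6) TPM (log2 fold change 0.35, limma adjusted p = 0.0301). That call was lost without LAC_36, LAC_200, LAC_213, ID6_209 or ID6_216 (adjusted p of 0.0190 to 0.0719 over all mice left out) and with median-ratio scaling (0.160), and it did not pass in the upper range (0.40, adjusted p = 0.0564). With only the 2 groups fitted the Cebpd call was kept (limma adjusted p = 0.0180).

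Socs3 and Stat3, whose transcripts IL-6 itself can induce, did not pass. Socs3 was at 1.30 to 3.13 TPM at lactation and at 1.98 to 4.50 at involution (log2 fold change 0.22, adjusted p = 0.538), and Stat3 averaged 27.8 ± 4.5 and 34.1 ± 3.0 TPM (0.30, adjusted p = 0.141). Stat3 rose among mice numbered 200 and above (0.38, limma adjusted p = 0.0301) and with only the 2 groups fitted (0.30, adjusted p = 0.0458). Cebpb (-0.48, adjusted p = 0.0857) and Nfkbiz (0.12, adjusted p = 0.606) did not pass either, and Cebpb fell with median-ratio scaling (-0.64, limma adjusted p = 0.0253) and without LAC_213 (adjusted p = 0.00482). Junb, an AP-1 subunit, followed the range of animal number: it was at 39.03 to 57.6 TPM in the 6 lower-numbered mice and at 4.15 to 16.1 in the 13 others. The 12 immediate early genes split likewise, with sums of 306 to 571 TPM in the lower-numbered mice and 107 to 190 in the others. In the comparison of involution with lactation 1 of them, Zfp36, fell (log2 fold change -2.04, adjusted p = 0.0356).

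The comparison of lactation day 10 with nulliparous mice asks what the lactating liver does relative to that of mice that were never pregnant. Here 1 member rose (2.63%) and 3 fell (7.89%) of 38, where 2.72% of all genes rose and 6.49% fell. Past both thresholds were 2 members, Mt1 and Lrg1, where 0.746% of all genes were. The median log2 fold change was -0.21 against -0.03 over all genes, and -0.16 against 0.00097 with median-ratio scaling. In the unscaled fit 27 members were lower and 11 higher, most of them without passing, a split that was not counted over all genes. By role, 16 of 20 plasma proteins had lower values, but of these Lrg1 was the one that passed.

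Lrg1 was at 124 to 599 TPM in nulliparous mice (median 154) and at 66.1 to 143 in lactating mice, a log2 fold change of -1.12 (SE 0.30, limma adjusted p = 0.0232). NUL_221, at 599 TPM, stood far above the next at 232.3, and LAC_133 was the one lactating mouse to overlap the nulliparous mice. Without NUL_221 and ID6_216 the change was -0.85 (adjusted p = 0.0124), and without LAC_200 the call was lost (adjusted p = 0.0508). Steap4 was at 30.2 to 46.9 TPM in nulliparous and 19.7 to 27.7 in lactating mice, without overlap (log2 fold change -0.50, SE 0.10, limma adjusted p = 0.00434). It passed for each mouse left out, with median-ratio scaling (adjusted p = 0.0159) and among mice numbered 200 and above (-0.74, adjusted p = 0.00483). Il1b fell from 1.37 to 3.79 TPM (median 2.61) to 0.95 to 2.05 (log2 fold change -0.58, SE 0.17, limma adjusted p = 0.0363). This call was lost without any 1 of NUL_13, NUL_220, NUL_221, NUL_226, NUL_227, LAC_102, LAC_133 and LAC_213 (adjusted p of 0.0104 to 0.0902).

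Mt1 rose from 396 to 1560 TPM in nulliparous mice (median 737) to 744 to 4021 in lactating mice, a ratio of 2.67 (log2 fold change 1.34, SE 0.39, limma adjusted p = 0.0370), and the groups overlapped. In the lower-numbered mice Mt1 was at 495 to 742 TPM in the 3 nulliparous and 2401 to 4021 in the 3 lactating mice. In the upper range it was at 396 to 1560 and 744 to 2020 (log2 fold change 0.45, adjusted p = 0.675), and the difference between the ranges did not pass (interaction in limma, adjusted p = 0.254). The call was lost when any 1 of 9 mice was left out (NUL_1, NUL_4, NUL_13, NUL_226, NUL_227, LAC_36, LAC_102, LAC_133 and LAC_213; adjusted p of 0.0117 to 0.0864). Mt2 went the same way without passing (274 ± 278 TPM, SD, n = 7, against 896 ± 596, n = 6; log2 fold change 1.82, adjusted p = 0.0725), and it passed without NUL_221 or LAC_200 (adjusted p down to 0.0214) and with the range of animal number as a covariate (1.75, 0.0495). The summed metallothioneins were 2.82 times as high (two-sided exact permutation p = 0.0198, adjusted p = 0.0793).

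Fibrinogen, haptoglobin and hemopexin were lower at lactation without passing. Hp averaged 2360 ± 1050 TPM (SD, n = 7) in nulliparous and 1390 ± 312 (n = 6) in lactating mice (log2 fold change -0.68, adjusted p = 0.107), Hpx 3150 ± 923 and 2483 ± 490 (-0.32, adjusted p = 0.343), and the summed fibrinogen chains 6997 ± 1726 and 5439 ± 855 (ratio 0.777, two-sided exact permutation p = 0.0676, adjusted p = 0.162). With the range of animal number as a covariate Hp, Fga and Fgg fell (log2 fold changes -0.63, -0.30 and -0.34, limma adjusted p = 0.0340, 0.0483 and 0.0304), and so did Bcl3 (-0.61, 0.00693), while Cp (0.21, 0.0415), Il6ra (0.56, 0.0395) and Mt2 rose. In that fit 4 members rose and 7 fell, where 893 and 1655 of all 16230 genes did, against 441 and 1053 without the covariate. Il6ra was higher at 9.52 ± 3.6 TPM against 5.98 ± 1.3 (n = 7), did not pass in the fit of all mice (log2 fold change 0.55, adjusted p = 0.0650), and passed with median-ratio scaling (0.60, 0.0391). With 1 mouse left out Il6ra (LAC_133 or LAC_200, adjusted p down to 0.0413), Serpina3n and Lbp (NUL_13, 0.0339 and 0.0408), Il1r1 and Cebpb (LAC_213, 0.0499 and 0.0421) and Bcl3 (NUL_4, 0.0400) passed. The orosomucoid sum was 1163 ± 250 and 1358 ± 182 TPM (exact permutation p = 0.145) and the Serpina3 sum 6858 ± 2735 and 5690 ± 2537 (exact permutation p = 0.435).

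The ranges gave unlike counts. Among mice numbered 200 and above 0 members rose and 8 fell (Lcn2, Itih3, Serpina3n, Lrg1, Lbp, Steap4, Stat3 and Bcl3), where 2.65% of all genes rose and 4.48% fell. Among mice numbered under 200, a fit chosen after the data were seen, 6 rose (Orm3, Cp, Mt1, Mt2, Slc39a14 and Cebpb) and 0 fell, where 1.91% and 2.39% of all genes did. The largest fall in the upper range was that of Lcn2, from 9.10 to 72.1 TPM in the 4 nulliparous mice to 3.09 to 3.67 in the 3 lactating mice (log2 fold change -2.12, limma adjusted p = 0.0387). The difference of the effect between ranges was tested as an interaction over the 13 mice: 0 of 38 members passed, where 0.111% of all genes did. An unadjusted p under 0.05 in limma-trend was found for 10 of 38 members, a larger share than the 13.3% of all genes. After adjustment, a difference between the ranges was therefore not shown for any single member.

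The other lists gave these counts for lactation against nulliparous mice. Of the serum amyloid A genes 4 of 4 fell, of the IL-6 family and JAK-STAT genes 4 of 19 fell (Stat5a, Stat5b, Ghr and Ctf1) and 0 rose, and of the IL-1, TNF and NF-kB genes 6 of 27 fell and 0 rose, with Il18 and Casp1 changed most (log2 fold changes -0.72 and -0.66). Of 11 tested negative acute phase proteins, which fall when the response is active, Alb rose (0.86, adjusted p = 0.00137) and Serpina7 fell just inside the threshold (-0.82). Of the Kupffer cell markers 10 of 11 fell, with sums of 291 to 546 TPM in nulliparous and 199 to 377 in lactating mice. The part of these cells in the fall of Il1b was not tested. Of the lymphocyte markers 3 of 8, of the endothelial, stellate and cholangiocyte markers 1 of 12 and of the zinc handling genes 1 of 7 (Slc39a8) fell, and of the hepatocyte markers Alb rose and Cyp2e1 fell. None of the glucocorticoid-regulated, immediate early, neutrophil and monocyte or red blood cell genes passed in limma-trend, where 3, 0, 4 and 0 of them had an unadjusted p under 0.05.

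The comparison of involution day 6 with nulliparous mice asks how far the liver after weaning differs from that of mice that were never pregnant. Of the 38 members 3 rose (7.89%; Itih4, Hpx and Cd14) and 0 fell, where 3.44% of all genes rose and 0.912% fell. None passed both thresholds, where 0.253% of all genes did. At an unadjusted p under 0.05 in limma-trend, 11 members were higher and 2 (Crp and Mt1) lower, where 25.1% of all genes had such a p in either direction. The median log2 fold change was 0.17 against 0.07 over all genes.

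Hpx was at 2231 to 4632 TPM in nulliparous mice (median 3204) and at 4105 to 8182 at involution, with a log2 fold change of 0.85 (SE 0.19, limma adjusted p = 0.0201). Itih4 was at 688 to 1121 TPM (median 896) and at 1046 to 1562 (log2 fold change 0.52, SE 0.13, limma adjusted p = 0.0297). NUL_221 overlapped the involution mice in Hpx, and NUL_221 and NUL_227 did so in Itih4. The Itih4 call was lost without any 1 of NUL_1, NUL_4, NUL_13, ID6_201, ID6_209, ID6_216 and ID6_232 (adjusted p of 0.0158 to 0.0707), with median-ratio scaling (0.0752) and with the range of animal number as a covariate (0.0652). Neither passed in the upper range (Hpx 0.56, adjusted p = 0.186, and Itih4 0.31, adjusted p = 0.230). Cd14 was at 1.70 to 4.83 TPM (median 4.01) and at 5.08 to 7.22, without overlap (log2 fold change 0.70, SE 0.14, limma adjusted p = 0.0109), and it passed within the upper range too (0.45, adjusted p = 0.0494). With 1 mouse left out Orm2 (without NUL_221, adjusted p = 0.0438), Itih3 (without NUL_221 or NUL_227, down to 0.0243) and Crp (without NUL_220, 0.0395) also passed.

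Within that range, with 4 nulliparous and 6 involution mice, 1 member rose and 0 fell, where 0.473% and 0.324% of all genes did. The median log2 fold change of the members was -0.02, with members going both ways, such as Hpx at 0.56 and Mt1 at -1.19. Hp there averaged 2974 ± 994 TPM (SD, n = 4) in nulliparous mice and 3597 ± 1198 (n = 6) at involution (log2 fold change 0.26, adjusted p = 0.751), and the fibrinogen sum 8080 ± 1505 and 8046 ± 1163 (exact permutation p = 0.962). Over all mice the sums of fibrinogen (6997 ± 1726 and 8046 ± 1163 TPM, exact permutation p = 0.235), orosomucoid (1163 ± 250 and 1411 ± 348, p = 0.177), Serpina3 (6858 ± 2735 and 6071 ± 989, p = 0.526) and metallothionein (1109 ± 670 and 536 ± 239, p = 0.0385, adjusted p = 0.115) genes did not pass after adjustment (two-sided exact permutation tests, n = 7 and 6).

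In the other lists, 1 of 4 serum amyloid A genes rose (Saa3, log2 fold change 2.42), and all 4 had risen from lactation. Of the IL-6 family and JAK-STAT genes 0 of 19 passed in limma-trend and 6 had an unadjusted p under 0.05, all higher, with sums of 585 to 824 TPM in nulliparous and 740 to 865 in involution mice, and of the IL-1, TNF and NF-kB genes Myd88 and Relb rose (0.49 and 0.39) and 0 fell. All 11 Kupffer cell markers rose, with sums of 291 to 546 and 611 to 816 TPM, and their part in the rise of Cd14 was not tested. Of the neutrophil and monocyte markers 3 of 10 and of the lymphocyte markers 1 of 8 (Nkg7) rose, of the red blood cell markers 5 of 5 fell, and of the zinc handling genes Slc39a5 fell (-1.22, adjusted p = 0.000175). Of the glucocorticoid-regulated genes Hsd11b1 and of the negative acute phase proteins Fetub rose. From lactation to involution, Ttr, F12 and Fetub of the negative acute phase proteins rose and Alb fell (-0.68, adjusted p = 0.00434).

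Single mice stood apart within their stage. NUL_221 was the highest of the 7 nulliparous mice in 21 of 38 members, 16 of them plasma proteins, and ID6_216 was the highest of 6 in 22, 15 of them plasma proteins. In lactating mice the highest counts were 12 members for LAC_213 and 9 for LAC_102. NUL_221 held 599 TPM of Lrg1, 72.1 of Lcn2 and 1709 of Fgl1, and its plasma proteins reached 3.54% of all TPM, the highest of the nulliparous mice. ID6_216 reached 3.76%. Neither was the highest of its stage in Crp or in Serpina3k, and their Kupffer marker sums were 460 and 816 TPM. Without both mice, a choice made after the data were seen, 16 members rose and 3 fell from lactation to involution. Of all 16256 genes tested there, 2641 rose and 624 fell. Of the 19 member calls 18 were shared with those of all mice.

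**Figure D5:**
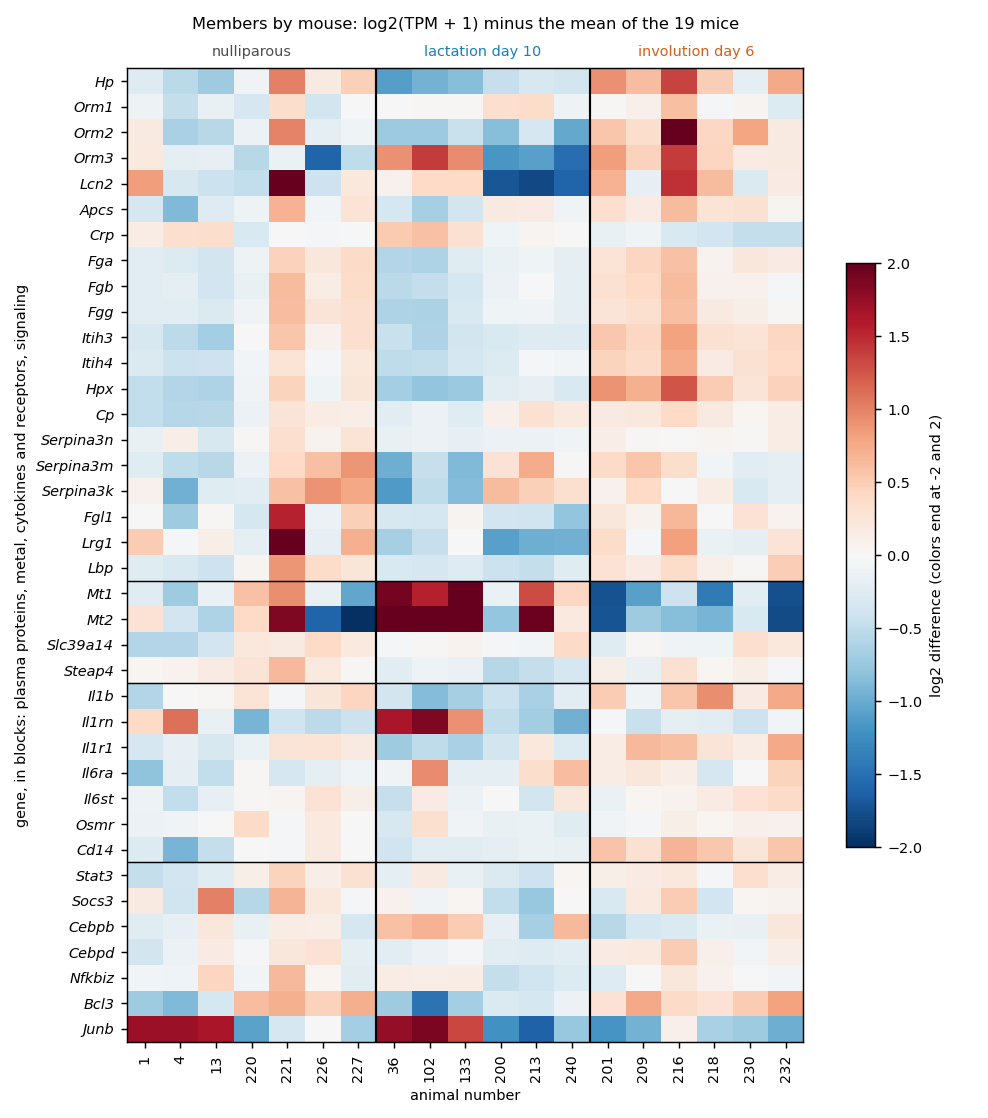
Log2(TPM + 1) of the 38 tested members in each of the 19 mice minus the gene's mean over all mice (rows are genes in blocks by role, columns are mice by stage and animal number; red is higher, blue lower, and colors end at -2 and 2). NUL_221 and ID6_216 are red across most plasma proteins, the metallothioneins are red in most lactating mice, and Junb separates animal numbers under 200 from the rest.

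A further 3 relations among members were examined across mice with stage and range removed, as part of the same 5. Hp and Orm1 had r = 0.58 (permutation p = 0.0518, adjusted p = 0.0864; Spearman rho = 0.44, permutation p = 0.0980, adjusted p = 0.123), and r was 0.17 with the pair most distant from the Hp median left out, so the relation rested on those mice. Within the ranges r was 0.61 (n = 13, permutation p = 0.0587) and 0.25 (n = 6, permutation p = 0.723). Socs3 and Cebpd had r = 0.57 (permutation p = 0.0694, adjusted p = 0.0868) and rho = 0.63 (permutation p = 0.0245, adjusted p = 0.0408), with r = 0.47 when such a pair was left out, 0.58 in the upper range (n = 13, permutation p = 0.0780) and 0.55 in the lower (n = 6, permutation p = 0.474). Socs3 and Lcn2 had r = 0.37 (permutation p = 0.257, adjusted p = 0.257) and rho = 0.06 (permutation p = 0.826, adjusted p = 0.826), with r = 0.51 without the 2 farthest mice, 0.56 in the upper range (permutation p = 0.145) and -0.18 in the lower (n = 6, permutation p = 0.726). Without NUL_221 and ID6_216, r was 0.05, 0.42 and -0.21 for the 3 pairs, whereas Fga and Fgb kept 0.86 and Mt1 and Mt2 0.89.

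By sequence, 28 of the 39 members had a promoter in the RefSeq table (Hp, Orm1, Serpina3k, Serpina3m, Cd14, Fgl1, Cebpd, Lbp, Slc39a14, A2m and Nfkbiz had none). In the 250 bases before the start, TTCNNNGAA stood in those of 6 members (Apcs, Fga, Fgb, Steap4, Socs3 and Itih4), CTGGGAA in 6 (Apcs, Il1rn, Fgg, Fgb, Steap4 and Lrg1) and TTGCNNAA in 10 (Il1r1, Lcn2, Cp, Fga, Fgb, Orm3, Orm2, Steap4, Hpx and Mt2), with some members having more than 1 listed start. Fgb and Steap4 held all 3. TGCNCNC stood in 11 members. Of the 32 listed starts of the 28 members, 6, 8, 10 and 11 held these 4 motifs in the order given. Of all promoter windows 7.02%, 9.10%, 9.56% and 44.4% did, and the shares were not compared by a test.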

How the data were processed

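Livers of 19 mice were profiled by paired-end poly(A) RNA sequencing. The authors deposited 1 table of TPM values for 51826 gene entries, made with RSEM 1.3.1 on GRCm38 per the submitters' processing notes and rounded to 2 decimals, of which 26140 entries were above 0. The aligner is not given in the sources used here. Column sums ran from 999999.3 to 1000001.14, and 11209 to 11797 genes reached 1 TPM in a mouse. No 2 of the 171 pairs of mice were identical. TPM holds no read counts, so the count test of the study was not repeated and depth is unknown.

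Stages were taken from the labels, and replicates are separate mice. Log2(TPM + 1) was taken for the 16230 genes averaging 0.1 TPM or more, and was fitted with limma-trend (limma 3.58.1, R 4.3.3), with 1 mean per stage and Benjamini-Hochberg adjustment. Fold changes on this scale understate changes of low genes. Sums of related or co-assembled genes were compared by exact permutation tests and relations by permutation within stage and range of animal number (Python 3.11.15, numpy 2.4.6, pandas 2.3.3). Tests were checked on simulated data.

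The members and lists were chosen with earlier results of these data known. Per-mouse ranges are given for members past both thresholds in any comparison and for the 8 next largest changes past the adjusted p, and for lists at most 4 genes, the largest rises and falls, beyond genes named for a call or a background role. Tf and Ahsp had no matching symbol. Promoters were taken from RefSeq (GRCm38.p6) and searched on both strands for TTCNNNGAA, CTGGGAA, TTGCNNAA and TGCNCNC. RSEM divides reads that match more than 1 related gene by estimate, so values of single Orm, Serpina3, Mt and Saa genes can be less certain. Alternatives changed the pseudocount (0.1), the filter (1 TPM, or none), the scaling, the mice in the fit, and the range of animal number as a covariate or by subset, and left out each mouse. The fits of lower-numbered mice alone, those without NUL_221 and ID6_216, the relations within a range and the scaled stage order were added after the data were seen.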

Additional observations from a re-analysis of the deposited data

Results flagged for a closer look

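In 13 of 114 groups (38 members in 3 stages) the highest or lowest mouse stood apart from the others by a gap test at the 95% level, where chance gives about 1 in 20, or 5.7 groups. NUL_221 was the distant mouse in 6 of the 13 groups, high in Orm2 (91.6 TPM), Lcn2 (72.1), Fgl1 (1710), Lrg1 (599), Mt2 (863) and Steap4 (46.9). ID6_216 was high in Orm1 (1850 TPM), Orm2 (219), Fgl1 (929) and Junb (16.1). Among lactating mice, LAC_240 was high in Slc39a14 (94.5 TPM), LAC_102 in Osmr (1.0) and LAC_36 low in Cd14 (2.89).

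Stat3, the transcription factor downstream of the IL-6 receptor, had lactation effects of opposite sign in the 2 ranges of animal number. Its log2 fold change was 0.32 in mice numbered under 200, which did not pass (limma adjusted p = 0.180), and -0.47 in mice numbered 200 and above (adjusted p = 0.0272), a difference of -0.79 (interaction in limma, unadjusted p = 0.00124, adjusted p = 0.157, 13 mice). The difference did not pass adjustment over all genes.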

How the results depend on the processing

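TPM carries no depth, so counting error could not be set beside any value, and the 2-decimal rounding limits genes near 0. Of 3113 alternative values for 114 single log2 fold changes, 2980 stayed on the same side of the threshold, 82 lost and 50 gained a call, and 1 reversed: Il1rn from lactation to involution was 0.49 among mice numbered 200 and above. A further 86 values of uncalled members changed sign. For lactation against nulliparous mice, 4 members passed (2 past both thresholds), against 2 (1) with no filter, 2 (0) with only the 2 groups fitted, 11 (3) with the range of animal number as a covariate, 8 among mice numbered 200 and above, and 2 to 5 (1 to 2) with each mouse left out. For involution against lactation the 19 (7) became 23 (7) with only the 2 groups fitted and 16 to 20 (5 to 7) with each mouse left out, and 4 were past both with the covariate. For involution against nulliparous mice the 3 (0) became 2 to 5 with each mouse left out, 1 among mice numbered 200 and above, and 1 (Orm3) was past both with the covariate. Over all genes, calls upward and downward from lactation to involution were 2936 and 767, and 1302 and 1354 with median-ratio scaling. They were 441 and 1053 against 745 and 735 from nulliparous to lactation, and 559 and 148 against 165 and 214 from nulliparous to involution. With the range of animal number as a covariate they were 2100 and 630 from lactation to involution. From nulliparous mice they were then 893 and 1655 to lactation and 174 and 81 to involution.

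With each mouse left out, the orosomucoid sum differed by 146 to 278 TPM between lactating and nulliparous mice and by 114 to 331 between involution and nulliparous mice, and both passed without NUL_221 (exact permutation test, adjusted p = 0.0468). The metallothionein sum differed by 1507 to 2461 TPM between lactating and nulliparous mice, passing without NUL_221 or LAC_200 (adjusted p = 0.0468 and 0.0303). From lactation to involution it differed by -3033 to -2080 TPM and the fibrinogen sum by 2200 to 2824. Each of these lost its call for any 1 of 10 of the 12 mice left out (exact permutation test, adjusted p = 0.0519), where fewer mice raise the smallest p. Among mice numbered 200 and above the metallothionein difference was -1193 TPM and that of fibrinogen 1923 (adjusted p = 0.190 for each), and with scaling fibrinogen differed by 1862 (adjusted p = 0.0524). Among mice numbered under 200, r fell to 0.50 for Mt1 and Mt2 and 0.80 for Fga and Fgb, whereas that of Hp and Orm1 passed with scaling (0.65) and with stage means alone removed (0.59). No paired analysis was possible because the animal numbers differ between the stages. The causes were not tested.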
